A study of Mus musculus with 6 samples.

Results

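The 7 genes Slc34a1, Slc34a3, Slc5a1, Slc5a2, Slc5a10, Slc5a12 and Slc2a2, which encode transporters of phosphate, sugars and lactate, were followed through 3 single-cell libraries of mouse kidney. They were taken by symbol from the 31053 genes of the kidney count matrix. Their UMIs (unique molecular identifiers, 1 per captured transcript molecule) were summed per library and per nephron segment, with segments assigned from marker genes that include none of the 7.

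The proximal tubule reclaims filtered phosphate, glucose and lactate through sodium-coupled carriers in its brush border, and its segments S1, S2 and S3 follow each other from the glomerulus toward the loop of Henle. Slc34a1 (NaPi-IIa) and Slc34a3 (NaPi-IIc) carry phosphate, and Slc5a2 (SGLT2) and Slc5a1 (SGLT1) carry glucose, the former with low affinity and high capacity and the latter with high affinity. Slc5a10 (SGLT5) carries mannose and fructose, Slc5a12 (SMCT2) is a low-affinity lactate carrier, and Slc2a2 (GLUT2) lets glucose leave the cell through the basolateral membrane.

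Kidneys of 12-week-old male C57BL/6 mice were minced and digested with type I collagenase, either for 60 min in the conventional way (control) or in a recirculating microfluidic digestion device followed by 1 pass through a dissociation and filter device (platform). The platform gave 2 libraries, collected after the 15 min and the 60 min interval. The later collection came from the tissue that the earlier one had left in the device. According to the study, the control and device conditions of a replicate used tissue of the same mouse, which the sample labels do not state. In every library dead cells had been removed by sorting on SytoxBlue before 10x Chromium 3′ v3 capture. There was 1 library for each condition (n = 1), so nothing below was tested between conditions. All intervals are exact 95% intervals for counting error only, since no replicate shows the spread between mice or preparations.

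The deposited kidney matrix held 8233 control, 12082 platform 15 min and 13719 platform 60 min cells with 69691783, 116998401 and 112969440 UMIs. Under the limits of the study, 200 to 3000 genes and no more than 50% mitochondrial UMIs, the kept cells numbered 5886, 8390 and 9936, with medians of 5071, 6612 and 4583 UMIs per cell. The platform 15 min library stood apart in its median share of mitochondrial UMIs, at 20.4% against 7.38% in the control and 8.59% in the platform 60 min library. These medians run over all cell types. In proximal tubule cells alone they were 21.7% at 15 min, 10.6% in the control and 15.8% at 60 min. The control shared 53 cell barcodes with the 15 min library and 93 with the 60 min library, and the 2 platform libraries shared 211. Pairs of mammary tumor libraries of the same series, with 8152 to 8198 cells each, shared 16, 20 and 21. The cause of the kidney overlap was not tested.

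Proximal tubule cells numbered 3158, 7227 and 2997 in the control, 15 min and 60 min libraries, which was 53.7%, 86.1% and 30.2% of kept cells. Among them 882, 2163 and 1251 cells were gated as S1 and 1119, 3801 and 958 as S2, whereas S3 held only 21, 52 and 67 cells. The study named S2 and S3 as a joint cluster, and whether cells gated as S2 here include S3 cells was not tested. Segments were told apart by unscaled mean scores over 6 S1, 3 S2 and 6 S3 markers. The gate was set on these markers, so their levels describe it and are no check of it. Summed over the libraries, the S1 marker Gatm, a creatine synthesis enzyme, lay at 2733 CPM (counts per 1000000 UMIs of the same cells) in S1 cells and 19.9 CPM in S3 cells, and the S3 marker Cyp7b1, an oxysterol hydroxylase, at 803 CPM in S3 cells and 0.106 CPM in S1 cells. A further 3068 of the 13382 proximal tubule cells lay between segments, 1673 of them with segment scores closer than the gap required. The 4 injury markers Havcr1, Lcn2, Krt20 and Vcam1 summed to at most 2.17 CPM in the proximal tubule cells of any library. Lymphocytes, which should lack these transporters, served as the measure of free RNA. Their medians were 3992, 3851 and 4040 UMIs per cell in the control, 15 min and 60 min libraries, against 6204, 6611 and 6665 in S1 cells.

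The genes lie on 6 chromosomes of the mm10 (GRCm38) build in the GENCODE M21 annotation. They are all protein-coding, and their UMIs come from the 3′ end, so levels are compared within a gene and not between genes. Slc34a1 lies at chr13:55398187-55415592 on the plus strand and overlaps Pfn3 on the opposite strand, and Slc34a3 lies at chr2:25228898-25234364 on the minus strand. Slc5a2 lies at chr7:128265657-128272430 on the plus strand, opposite BC017158, and Slc5a1 at chr5:33104219-33162870 on the plus strand, where Gm15936 shares its strand. Slc5a10 lies at chr11:61672781-61720826 on the minus strand, opposite Grap and Fam83g. Slc5a12 lies at chr2:110597298-110647779 and Slc2a2 at chr3:28697903-28731359, both on the plus strand.

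The segments separated most of the genes in every library. Slc34a3, Slc5a2 and Slc5a12 were high in S1, low in S2 and at or near 0 in S3, Slc2a2 fell more gradually in the same order, and Slc5a10 ran the other way. Slc34a1 was read at like levels in S1 and S2 and lower in S3, and Slc5a1 reached its highest level in the thick ascending limb. Proximal tubule cells held 93.3% to 99.6% of the kept UMIs of each gene other than Slc5a1, over the 3 libraries.

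Slc34a1, the main carrier of phosphate reabsorption, had 14760 UMIs in S1 cells of the control, 67882 in the 15 min library and 26504 in the 60 min library. This gave S1 levels of 2564 CPM (2523 to 2606) in the control, 4436 (4403 to 4469) at 15 min and 3100.1 (3063 to 3138) at 60 min. S2 levels were 3394, 4754 and 4089 CPM, so S1 stood at 0.756 (0.741 to 0.771), 0.933 (0.925 to 0.941) and 0.758 (0.746 to 0.771) of S2. S2 was thus above S1 in each library, by less than 2-fold. In S3 cells Slc34a1 reached 805 CPM (666 to 964), 1565 (1443 to 1694) and 587 (516 to 665), and S1 exceeded S3 3.19-fold (2.66 to 3.85), 2.83-fold (2.62 to 3.07) and 5.28-fold (4.66 to 6.01). The S3 level rested on few cells. The 10% of S3 cells with the most Slc34a1 UMIs held 75.4%, 41.1% and 74.0% of them, and the median S3 cell had 0, 1 and 1 UMI against 12, 25 and 15 in S1. Lymphocytes read 89.7 (77.3 to 104), 154 (134 to 175) and 83.7 CPM (75.6 to 92.4) of Slc34a1, and 19.9%, 34.3% and 22.8% of them had a UMI. Thick ascending limb cells read 75.7, 44.4 and 123 CPM (106 to 142), above lymphocytes in the 60 min library only, where 10% of the cells held 74.3% of the UMIs.

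Slc34a3, the other brush-border phosphate carrier, was read almost entirely from S1. It measured 90.7 CPM (83.1 to 98.8) in S1 of the control, 147 (141 to 154) at 15 min and 112 (105 to 120) at 60 min. In S2 it measured 2.63 (1.65 to 3.97), 4.39 (3.70 to 5.17) and 4.90 CPM (3.41 to 6.81), and S1 exceeded S2 34.5-fold (22.6 to 55.6), 33.6-fold (28.4 to 39.98) and 22.9-fold (16.4 to 33.1). The S2 intervals overlapped those of lymphocytes, which read 1.92 (0.523 to 4.91), 4.10 (1.504 to 8.92) and 1.93 CPM (0.881 to 3.66). No UMI fell in the 21, 52 and 67 S3 cells, whose intervals reach 25.2, 9.48 and 8.80 CPM. Against a floor of 3 counts per library S1 was 4.43-fold, 19.1-fold and 15.7-fold higher. The lower limits of the exact intervals were 3.59-fold, 15.5-fold and 12.7-fold. The 2 phosphate carriers therefore differed in range, Slc34a1 spanning S1 and S2 and Slc34a3 ending with S1.

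Slc5a2, the bulk glucose carrier and the target of gliflozin drugs, had 2149, 11593 and 4866 UMIs in S1 cells of the control, 15 min and 60 min libraries, or 373 CPM (358 to 389), 758 (744 to 771) and 569 (553 to 585). S2 levels were 55.1 (50.2 to 60.4), 82.2 (79.1 to 85.4) and 103 CPM (95.8 to 111), so S1 exceeded S2 6.77-fold (6.12 to 7.50), 9.22-fold (8.84 to 9.61) and 5.52-fold (5.11 to 5.97). S2 nonetheless lay above the lymphocyte levels of 4.32, 13.0 and 9.42 CPM in each library, with no overlap of the intervals. In S3 there were 0, 1 and 3 UMIs. S1 was at least 14.8-fold higher than S3 in the control, and the ratio was 295 (52.9 to 11644) at 15 min and 79.5 (27.2 to 386) at 60 min. A Slc5a2 UMI was found in 68.6%, 91.6% and 81.5% of S1 cells and in 1.69%, 4.44% and 3.17% of lymphocytes. After thinning every cell to 1000 UMIs, which left out 28, 9 and 22 S1 cells, the S1 shares were 28.3%, 49.0% and 38.9%, in the same order of libraries.

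Slc5a1, the high-affinity glucose carrier of the late proximal tubule, was sparse in the kidney, with 344, 942 and 864 UMIs in the whole deposited libraries. Its highest level was in thick ascending limb cells in each library, at 75.7 CPM (51.4 to 107), 94.7 (64.8 to 134) and 106 (90.3 to 124), from 31, 32 and 161 UMIs in 117, 68 and 350 cells. It was 7.46-fold (4.78 to 11.4), 6.92-fold (4.68 to 9.91) and 9.36-fold (7.12 to 12.4) higher there than in S2. A Slc5a1 UMI was found in 17.1%, 26.5% and 27.1% of thick ascending limb cells, which had medians of 2504, 4356 and 3451 UMIs, and in 0 of 473, 1 of 338 and 0 of 1042 lymphocytes, for which the intervals reach 0.777%, 1.64% and 0.353%. These cells were 1.99%, 0.810% and 3.52% of kept cells and held 19.3%, 5.53% and 55.3% of the kept Slc5a1 UMIs, whereas proximal tubule cells held 72.7%, 93.8% and 34.7%. Within the proximal tubule S1 had 0, 10 and 2 UMIs and S2 had 85, 452 and 81, or 10.1 (8.10 to 12.5), 13.7 (12.5 to 15.0) and 11.3 CPM (8.997 to 14.1). S2 was 20.9-fold and 48.4-fold higher than S1 at 15 and 60 min, with S1 over S2 ratios of 0.0477 (0.0227 to 0.0886) and 0.0206 (0.00246 to 0.0770). In the control, where S1 had no UMI, the S1 over S2 ratio was at most 0.0646. S3 held 1, 9 and 5 UMIs, at 6.82 (0.173 to 38.0), 23.1 (10.6 to 43.9) and 11.9 CPM (3.87 to 27.8), intervals that overlapped those of S2 in each library. The order of S2 and S3 could therefore not be read for Slc5a1 at this depth.

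Slc5a10, the mannose and fructose carrier, was low in S1 at 2.26 (1.20 to 3.86), 4.18 (3.22 to 5.34) and 2.11 CPM (1.25 to 3.33). It measured 113 (106 to 121), 168 (163 to 172) and 129 CPM (120 to 137) in S2 and 171 (110 to 252), 190 (149 to 239) and 196 (156 to 243) in S3. S2 exceeded S1 50.1-fold, 40.1-fold and 61.0-fold, and S3 exceeded S1 75.5-fold, 45.5-fold and 92.9-fold. S2 stood at 0.664 of S3 (0.447 to 1.03) in the control, 0.881 (0.701 to 1.12) at 15 min and 0.657 (0.524 to 0.834) at 60 min, so S3 was above S2 beyond counting error in the 60 min library only. Lymphocytes read 2.40, 0.683 and 1.499 CPM, and the S1 interval overlapped theirs in each library.

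Slc2a2, the basolateral glucose exit, measured 104 CPM (95.4 to 112), 198 (191 to 205) and 167 (159 to 176) in S1 and 60.0 (54.9 to 65.5), 72.5 (69.6 to 75.5) and 69.8 (63.8 to 76.2) in S2. S1 exceeded S2 1.72-fold (1.53 to 1.95), 2.73-fold (2.58 to 2.88) and 2.40-fold (2.16 to 2.66), a shallower step than that of Slc5a2. In S3 it had 1, 1 and 4 UMIs, and the S1 over S3 ratios were 15.2 (2.71 to 601), 76.9 (13.8 to 3040) and 17.5 (6.83 to 64.4).

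Slc5a12, the low-affinity lactate carrier, followed Slc5a2. It measured 181 CPM (170 to 192), 239 (232 to 247) and 262 (252 to 274) in S1 and 19.1 (16.2 to 22.3), 18.9 (17.5 to 20.5) and 29.8 (25.9 to 34.1) in S2. S1 exceeded S2 9.46-fold (8.004 to 11.2), 12.6-fold (11.6 to 13.8) and 8.81-fold (7.65 to 10.2). No UMI fell in S3 cells of any library (up to 25.2, 9.48 and 8.80 CPM), which placed S1 at least 7.17-fold, 25.2-fold and 29.8-fold above S3. The order of the platform libraries in S1 turned with the cell limits. With at least 200 genes as the only limit S1 measured 414 CPM at 15 min and 283 at 60 min.

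**Figure D1:**
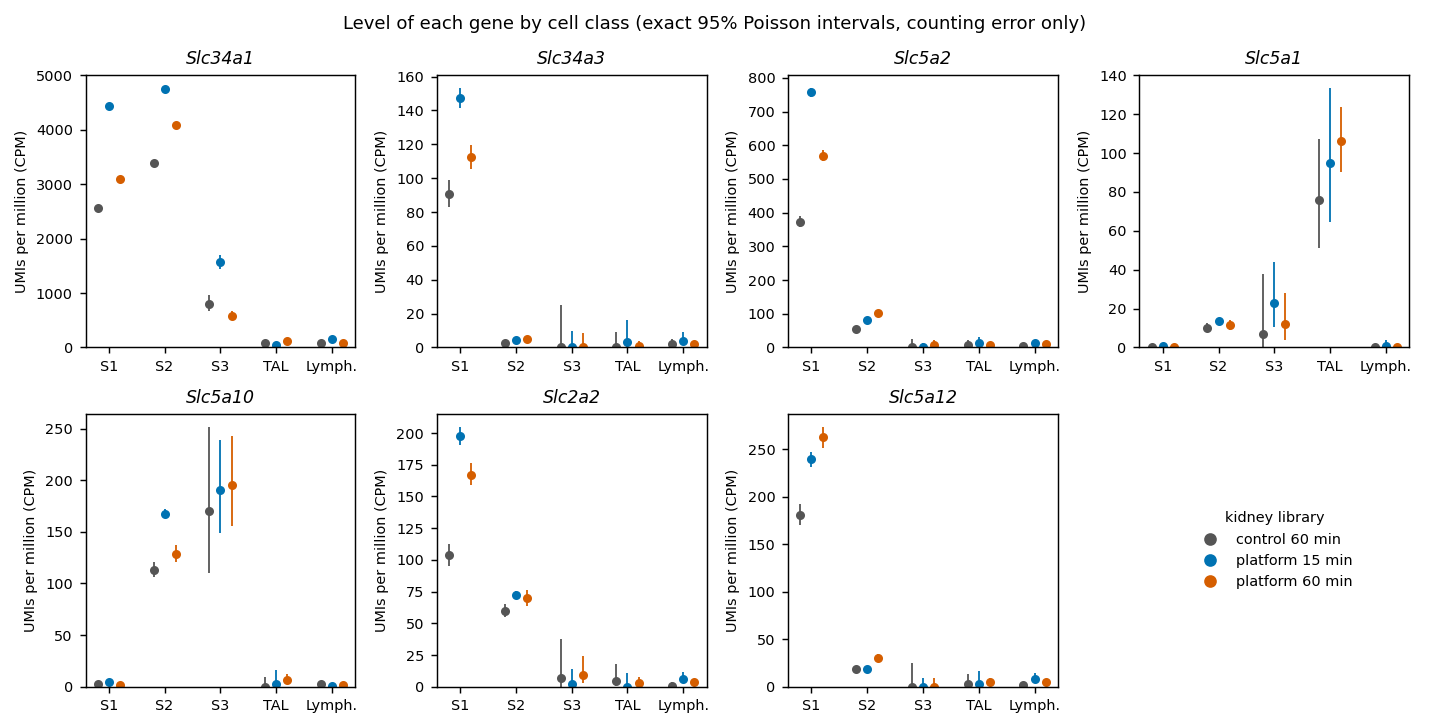
Level of each gene in CPM (linear axis from 0, scaled per gene) in S1, S2, S3, thick ascending limb (TAL) and lymphocyte (Lymph.) cells of the 3 kidney libraries, 1 point per library with its exact 95% Poisson interval. Slc34a3, Slc5a2, Slc2a2 and Slc5a12 are highest in S1, Slc34a1 in S2, Slc5a10 in S3 and Slc5a1 in the thick ascending limb, where it measured 75.7 to 106 CPM.

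Set against the whole transcriptome, the 2-fold differences were common among these genes. Between S1 and S3, 6 of the 7 could be compared, since Slc5a1 had fewer than the 30 UMIs required over both segments in each library (0 and 1 in the control, 10 and 9 at 15 min, 2 and 5 at 60 min). All 6 were at least 2-fold apart in the same direction in the 3 libraries, 5 higher in S1 (Slc34a1, Slc34a3, Slc5a2, Slc5a12 and Slc2a2) and 1 lower (Slc5a10), where 8.19% of the 7998 genes compared passed. Slc34a1 and Slc5a10 left the count, which became 4, at no more than 25% mitochondrial UMIs, and Slc5a10 left it with a wider gap between marker scores. Between S1 and S2, 3 genes were higher in S1 (Slc34a3, Slc5a2 and Slc5a12) and 2 lower (Slc5a1 and Slc5a10), where 9.80% of 9519 genes passed. Slc2a2 fell short in the control, and Slc34a1 in every library. The highest level lay in a proximal tubule class in all libraries for 6 of the 7, the exception being Slc5a1, against 10.3% of 12419 genes. The genes were listed with their known sites in the nephron in mind, so the counts describe the list and were not tested.

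Within the proximal tubule levels ran along a gradient of marker scores. The segment-scored cells of all libraries were put into 10 bins of near equal size by the S2 score minus the S1 score. From the first to the last bin Slc5a2 went from 630 to 20.8 CPM in the control, from 944 to 33.7 at 15 min and from 834 to 59.7 at 60 min. Slc5a12 went from 296, 294 and 358 to 6.68, 4.09 and 10.4 CPM, and Slc34a3 from 155, 198 and 182 to 1.49, 2.17 and 0. These 3 genes declined together along the score in every library. Slc5a10 ran from 3.31, 0.600 and 0 CPM in the first bin to 169, 210 and 186 in the last, and Slc5a1 from 0, 0.1999 and 0.803 to 12.6, 19.5 and 19.0. Slc5a10 passed 50 CPM by the fifth bin in each library, where Slc5a2 still measured 102, 285 and 183 CPM. Slc34a1 was high at both ends and lowest between them. In the control it measured 3705 CPM in the first bin, 1867 in the fourth and 4627 in the last, and at 60 min 4078, 2522 and 5497 in the same bins. The dip was shallower at 15 min, with 4967, 4127 and 5399 CPM. Slc2a2 fell from 164, 237 and 247 CPM in the first bin to 43.3, 61.2 and 64.5 in the seventh. In the last bin it stood at 66.8, 73.2 and 86.6, above the seventh and below the first. The median depth moved along the bins too: in the control it was 5824 UMIs per cell in the first bin, 4764 in the fifth and 5403 in the last. Its part in the course of Slc34a1 was not tested.

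**Figure D2:**
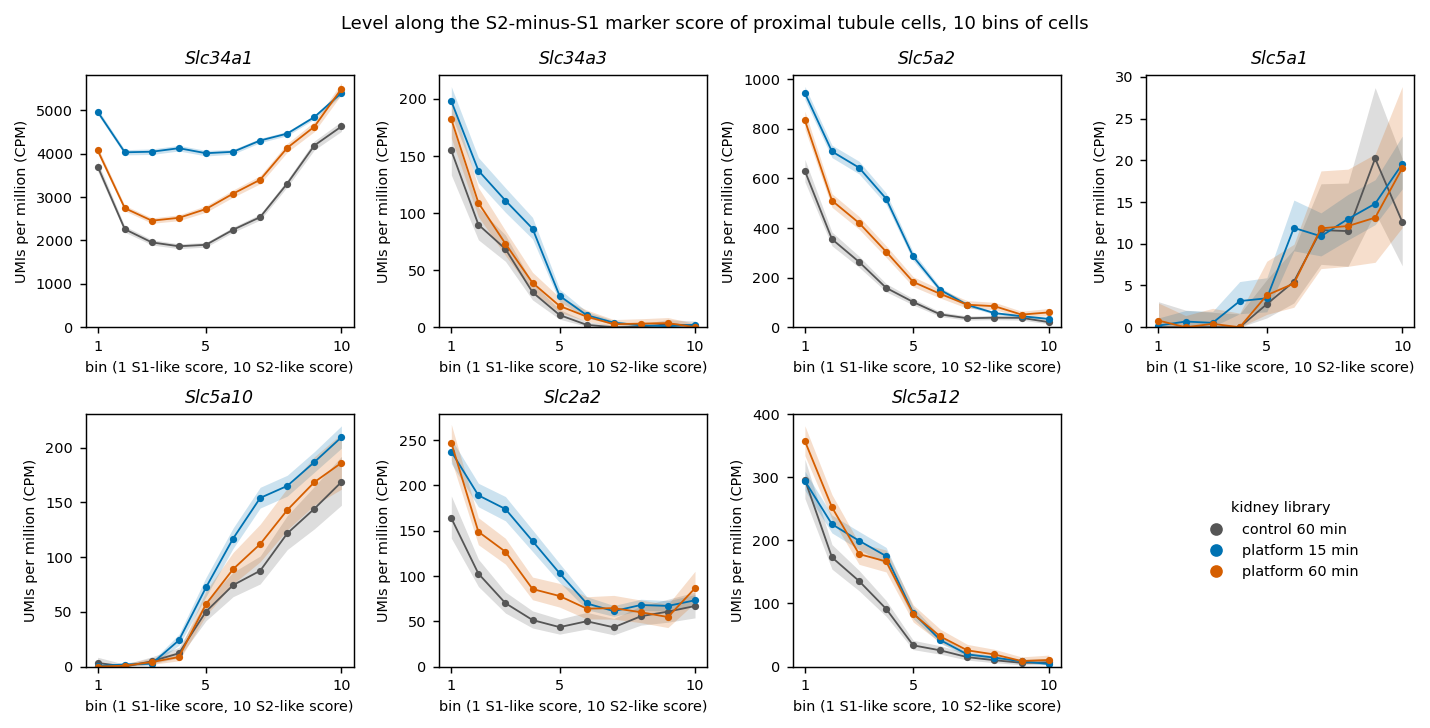
Level of each gene in CPM (linear axis from 0, scaled per gene) in 10 bins of proximal tubule cells ordered by the S2 marker score minus the S1 marker score, for the 3 kidney libraries, with exact 95% Poisson bands. Slc34a3, Slc5a2 and Slc5a12 decline, Slc5a10 and Slc5a1 rise, and Slc34a1 dips from 3705 to 1867 CPM and returns to 4627 CPM in the control.

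Single cells carried the same pairs. Of the 955 control proximal tubule cells with a Slc5a2 UMI, 497 also had one for Slc5a12, 302 for Slc34a3 and 92 for Slc5a10, although 713 cells had a Slc5a10 UMI and 700 a Slc5a12 UMI. At 15 min 3325 cells had a Slc5a2 UMI, and 1895 of them had one for Slc5a12 and 572 for Slc5a10, out of 2091 and 2917 such cells. At 60 min 1516 cells had a Slc5a2 UMI, 903 of them with Slc5a12 and 124 with Slc5a10, out of 1083 and 609. Slc5a2 and Slc5a1, the 2 glucose carriers of the brush border, were seen in the same cell 6, 78 and 12 times, while 65, 387 and 66 of the 106, 492 and 89 cells with a Slc5a1 UMI also had one for Slc5a10. Deeper cells have more of every gene, so the counts describe pairs within a library.

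The genes with the most similar pattern were found over 28 sums of cells (12 classes and the 3 libraries, S3 being too small to enter) by Pearson's r on log2(CPM + 1) among 8824 genes. The sums share libraries and depth, and r is given as a description. Slc34a1 was most like Dnase1 (0.991), Slc22a18 (0.985) and Tmem27 (0.985), Slc34a3 like Ugt2b34 (0.926), Nepn (0.922) and Prodh2 (0.919), and Slc5a2 like Prodh2 (0.944), Gldc (0.939), a glycine-cleaving enzyme, and Sel1l3 (0.936). Slc5a12 was most like Cyp2d26 (0.944), Gsta2 (0.943) and Nepn (0.937), Slc5a10 like the amino acid transporter Slc6a18 (0.949), Cyp2d9 (0.936) and Kap (0.931), and Slc2a2 like Fam151a (0.972), Amn (0.968), a partner of the endocytic receptor cubilin, and Kcnj15 (0.959). Slc5a1 had no match as close, with 0.868 for the membrane peptidase Mme, 0.762 for Ranbp3l and 0.761 for Acadl. It had only 1031 kept UMIs, and the part of counting error in its lower r was not tested. The 15 min thick ascending limb, with 68 cells, was under the 100 cells required and did not enter. Among the 7 themselves r was 0.935 between Slc5a2 and Slc5a12, 0.947 between Slc34a1 and Slc2a2 and -0.17 between Slc34a3 and Slc5a1.

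The other genes of phosphate, sugar and lactate handling were read from a list of 38. Between S1 and S3, 23 could be compared, 2 were at least 2-fold higher in S1 in all libraries and 2 lower, and between S1 and S2 the counts were 2 and 2 of 27, beside the 8.19% and 9.80% of all genes that passed. Lactate genes made up all 4 of the S1 and S3 differences. Slc5a8 (SMCT1), the high-affinity lactate carrier, measured 1.74, 3.59 and 2.69 CPM in S1, 105, 125 and 121 in S2 and 143, 200.4 and 265 in S3, the reverse of Slc5a12. Ldhd, which oxidizes D-lactate, ran the same way, from 205, 175 and 166 CPM in S1 to 587, 501 and 527 in S3. The proton-coupled lactate carrier Slc16a1 (MCT1) ran with Slc5a12, at 41.2, 71.4 and 59.7 CPM in S1, 16.2, 16.7 and 15.5 in S2 and no UMI in S3. It was called against the floor of 3 counts in S3. In the control, with 21 S3 cells, Slc16a1 would not reach 2-fold against the interval limit for 0 UMIs. Ldhb, a lactate dehydrogenase subunit, measured 2314, 2004 and 1991 CPM in S1 and 443, 663 and 506 in S3. Of 13 phosphate genes none of 9 was at least 2-fold apart between S1 and S3 in all libraries. Cyp24a1, which inactivates vitamin D, was the only one of 11 higher in S1 than in S2, at 35.4, 38.3 and 33.9 against 11.3, 9.27 and 10.1 CPM. In S3 it had no UMI in any library, and against the floor of 3 counts it fell short of 2-fold in the control. The scaffold Pdzk1, which binds Slc34a1, measured 687, 647 and 608 CPM in S1 and 498, 560 and 503 in S3, and the parathyroid hormone receptor Pth1r was highest in S2 at 486, 594 and 509 CPM. Of 13 sugar and polyol genes none of 5 was at least 2-fold apart between S1 and S3 in all libraries. The fructose carrier Slc2a5 read highest in S3 in each library (61.4, 48.8 and 45.3 CPM), against 23.5, 42.9 and 29.9 CPM in S1. Its S3 values came from only 21, 52 and 67 cells and are given without intervals. Hnf4a, a transcription factor of proximal tubule genes, was under 2-fold apart in both comparisons.

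Whether the platform gave the same levels as the control was read first within proximal tubule cells. Both platform comparisons share the control library, so their values stand side by side and are not set against each other. At 15 min all 7 genes were above the control and none reached 2-fold, where 0.545% of 11560 genes did so upward and 2.48% downward. The ratios were 1.69 (1.67 to 1.70) for Slc34a1, 1.48 (1.35 to 1.62) for Slc34a3, 1.86 (1.78 to 1.93) for Slc5a2, 1.61 (1.31 to 1.98) for Slc5a1, 1.79 (1.68 to 1.90) for Slc5a10, 1.64 (1.54 to 1.74) for Slc2a2 and 1.19 (1.12 to 1.27) for Slc5a12. Their median was 1.64, beside 0.862 over all genes compared and 1.10 over the 10 proximal tubule markers. The 6 S1 markers had a median of 1.40 and the 3 S2 markers 1.53. At 60 min Slc5a2 alone reached 2-fold, at 2.09 (2.001 to 2.19), where 6.91% of 11383 genes did so upward and 0.264% downward. Slc5a12 stood at 1.96 (1.84 to 2.09), Slc34a3 at 1.79 (1.62 to 1.98), Slc2a2 at 1.70 (1.58 to 1.82) and Slc34a1 at 1.24 (1.22 to 1.25). Slc5a10, at 0.975 (0.900 to 1.06), and Slc5a1, at 0.869 (0.659 to 1.14), had intervals that included 1. The median of the 7 was 1.70, beside 1.08 over all genes and 0.952 over the proximal tubule markers. The S1 and S2 markers had medians of 1.56 and 1.07.

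The makeup of the proximal tubule cells differed between the libraries. S1 cells were 27.9% of control, 29.9% of 15 min and 41.7% of 60 min proximal tubule cells, S2 cells were 35.4%, 52.6% and 32.0%, and cells between segments were 36.0%, 16.8% and 24.1%. Within S1 alone the ratios at 60 min were 1.52 (1.45 to 1.60) for Slc5a2, 1.24 (1.11 to 1.38) for Slc34a3 and 1.45 (1.35 to 1.57) for Slc5a12, each below its value over all proximal tubule cells, and 1.62 (1.47 to 1.78) for Slc2a2. Within S2 at 60 min they were 1.87 (1.66 to 2.10) for Slc5a2, 1.86 (1.06 to 3.34) for Slc34a3, 1.56 (1.26 to 1.93) for Slc5a12 and 1.16 (1.03 to 1.32) for Slc2a2. At 15 min Slc5a2 reached 2.03 (1.94 to 2.13) within S1 and 1.49 (1.35 to 1.65) within S2, and Slc2a2 1.91 (1.75 to 2.09) and 1.21 (1.10 to 1.33). With Slc34a3, at 1.63 (1.48 to 1.79) in S1, these S1 ratios lay above those over all proximal tubule cells. Slc34a1 stood at 1.73 (1.70 to 1.76) in S1 and 1.40 (1.38 to 1.42) in S2, while Slc5a12 stood at 1.32 (1.24 to 1.42) and 0.991 (0.832 to 1.19). The S1 markers themselves had a median ratio of 1.40 at 15 min and 1.56 at 60 min over all proximal tubule cells. S1 cells had median mitochondrial shares of 12.9%, 24.4% and 16.3%, and without mitochondrial genes in the denominator Slc5a2 passed 2-fold at 15 min too (2.06).

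**Figure D3:**
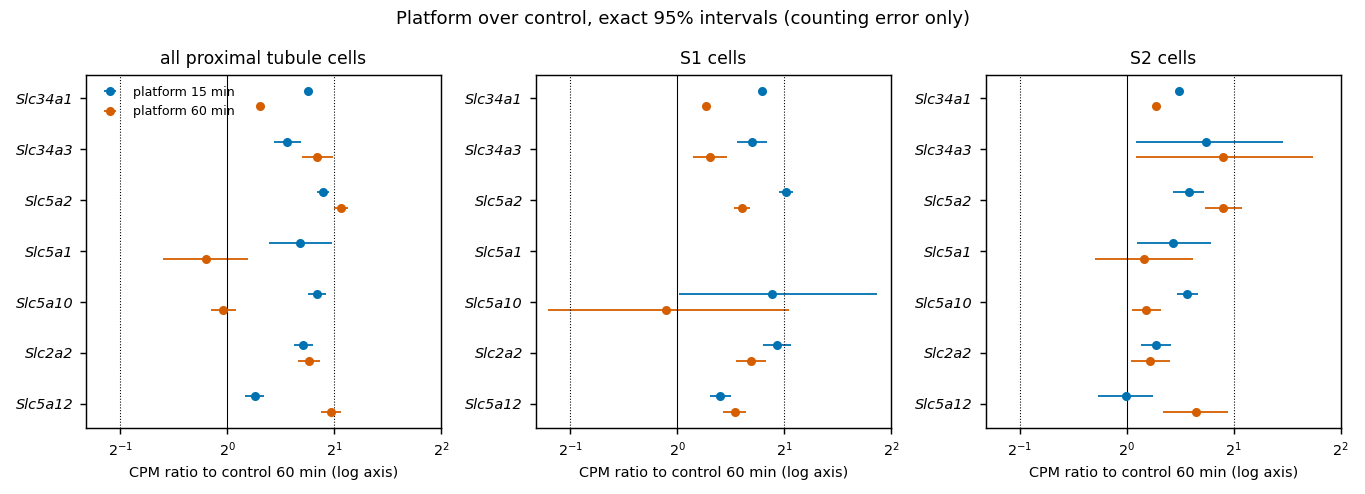
Ratio of each gene's CPM to the control in all proximal tubule cells, S1 cells and S2 cells (log axis, solid line at 1, dotted lines at 0.5 and 2), for the platform 15 min and 60 min libraries with exact 95% intervals for counting error. Slc5a1 in S1 had 0, 10 and 2 UMIs and has no point, and Slc5a2 is nearest to or past 2 in all proximal tubule cells at 60 min (2.09) and in S1 at 15 min (2.03).

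Of the 38 related genes 31 could be compared in proximal tubule cells. At 15 min 1 was at least 2-fold higher and 2 were lower, beside 0.545% and 2.48% of all genes compared, and at 60 min 3 were higher and none lower, beside 6.91% and 0.264%. All were low in these cells. The glucose carrier Slc2a12 (GLUT12) measured 1.59, 3.38 and 4.03 CPM in the control, 15 min and 60 min libraries. Slc5a3, a myo-inositol carrier, measured 2.31, 3.06 and 7.34 CPM, against 471, 805 and 696 CPM in thick ascending limb cells, and the monocarboxylate carrier Slc16a7 (MCT2) 0.924, 0.355 and 2.48 CPM, against 378, 527 and 395 there. Emb, which escorts monocarboxylate carriers to the membrane, measured 1.33, 0.266 and 1.24 CPM, and 250.4, 161 and 257 CPM in lymphocytes. The part of free RNA in these 3 low levels was not tested.

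Over whole libraries the share of proximal tubule cells also enters. At 15 min 5 of the 7 genes were at least 2-fold above the control, Slc5a2 at 2.88 (2.77 to 2.99), Slc5a10 at 2.77 (2.61 to 2.95), Slc34a1 at 2.63 (2.60 to 2.65), Slc2a2 at 2.54 (2.39 to 2.70) and Slc34a3 at 2.27 (2.08 to 2.48), where 2.15% of 14031 genes did so upward. Slc5a1 stood at 1.97 (1.65 to 2.36) and Slc5a12 at 1.87 (1.76 to 1.99). At 60 min none reached 2-fold, where 9.63% of 14878 genes did, and the ratios ran from 0.651 (0.602 to 0.704) for Slc5a10 to 1.38 (1.32 to 1.44) for Slc5a2.

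Much of the RNA of these genes lay in cells that the gene limit removed. Cells with more than 3000 genes were 19.3%, 22.9% and 19.5% of deposited cells and held 46.2%, 43.7% and 47.6% of all UMIs. They held 66.4%, 75.5% and 73.3% of the Slc5a12 UMIs, the highest share of the 7 in each library. For Slc34a1 the shares were 53.9%, 45.8% and 64.9%, and for Slc5a2 57.4%, 56.1% and 66.4%. For Slc5a10 they were 46.2%, 33.0% and 54.6%, and for Slc5a1 45.3%, 37.5% and 53.5%. Both genes lay under the share of all UMIs at 15 min, and Slc5a1 did so in the control too. Within S1-gated cells Slc5a12 measured 245 CPM over the limit and 181 within it in the control (ratio 1.35, 1.26 to 1.46), 537 and 239 at 15 min (2.24, 2.16 to 2.33) and 295 and 262 at 60 min (1.12, 1.07 to 1.18). In S2 the ratios were 1.11 (0.902 to 1.37), 3.56 (3.23 to 3.92) and 1.48 (1.26 to 1.74). Slc5a2 in S1 stood at 0.965 (0.914 to 1.02), 0.987 (0.964 to 1.01) and 0.872 (0.843 to 0.903), and Slc5a10 in S2 was lower over the limit in each library (0.709, 0.817 and 0.758). With at least 200 genes as the only limit, which drops the mitochondrial limit together with the upper gene limit, the Slc5a12 ratio of platform 15 min to control in proximal tubule cells was 2.12, against 1.19 in kept cells. No doublet caller was run, and whether the cells over the limit were doublets was not tested.

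**Figure D4:**
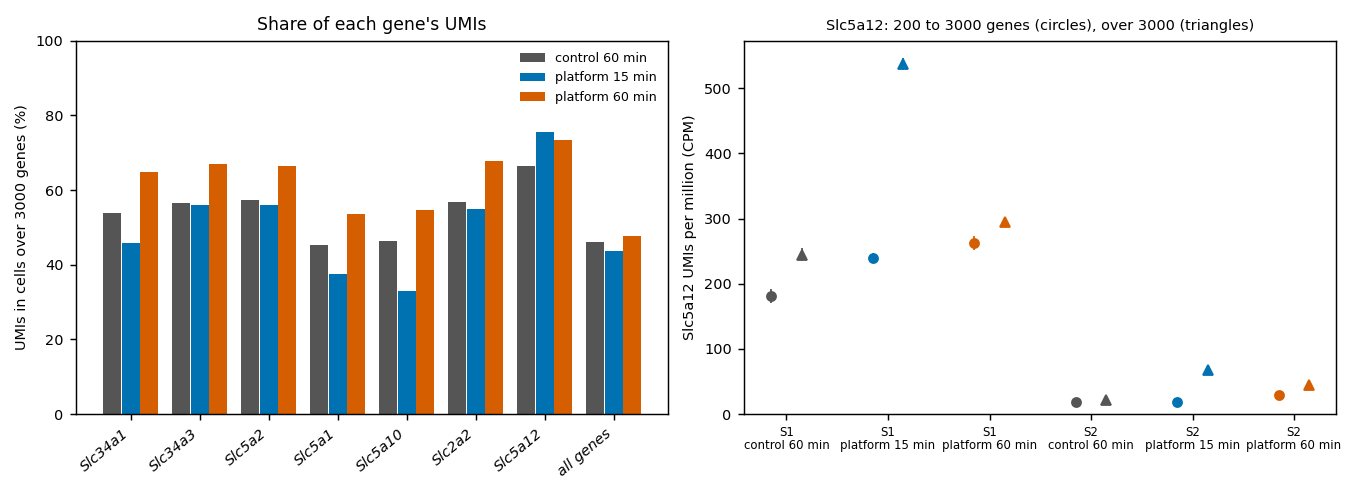
Left, share of each gene's deposited UMIs (percent, axis from 0) that lay in cells with more than 3000 genes, with all genes as the comparison. Right, Slc5a12 in CPM in S1 and S2 cells within (circles) and over (triangles) 3000 genes with exact 95% Poisson intervals. Slc5a12 has the highest share in each library (66.4% to 75.5%), and its levels stand furthest apart at 15 min (537 against 239 CPM in S1).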

How the data were processed

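The authors aligned reads to mm10 with Cell Ranger 3.1.0, used its Aggr step to even read depth across libraries, and deposited unfiltered UMI counts, which are whole numbers. Here counts were read with Python 3.11.15 and scanpy 1.11.5. Cells with 200 to 3000 genes and at most 50% mitochondrial UMIs were kept; no doublet caller was run beyond that gene limit. Cells were gated from marker lists as the class with the highest scaled score (minimum 0.3, gap 0.1). Proximal tubule cells were then gated as S1, S2 or S3 by the highest unscaled score with a gap of 0.2. Levels are CPM (counts per 1000000 UMIs of the summed cells), with exact Poisson, Clopper-Pearson and conditional binomial intervals (SciPy 1.17.1). A gene was compared with at least 30 UMIs over both groups, and a 2-fold ratio was called without a test, since each condition had 1 library. The script was checked on Poisson counts simulated from control rates with planted fold changes, which hold no spread between cells or libraries. All 7 genes were named, with those of the list of 38 that passed 2-fold or led a role, and the 3 most alike genes of each. The members and lists were chosen with earlier results of these data known. Other denominators, cell limits, thresholds, clusters and gates were tried. Tumor libraries were read whole and, for Slc5a1, also split by an Epcam UMI. Some genes of the list are counted but not reported here.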

Additional observations from a re-analysis of the deposited data

Results flagged for a closer look

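Slc5a1 was also read outside the kidney comparisons. In the MMTV-PyMT mammary tumor libraries of 10-week-old female mice, digested in the same 3 ways, it had 939, 1492 and 560 UMIs in the control, platform 15 min and platform 60 min libraries, or 10.4 CPM (9.73 to 11.1), 14.7 CPM (14.0 to 15.5) and 5.77 CPM (5.30 to 6.27). The 15 min value drew attention because it lay far above the floor of 3 counts (0.0296 CPM) and in the same range as Slc5a1 in S2 cells of the kidney. A Slc5a1 UMI was found in 9.03%, 14.3% and 5.56% of tumor cells. Cells with a UMI of the epithelial gene Epcam were 71.1%, 78.2% and 53.7% of cells and held 98.7%, 99.5% and 99.3% of the Slc5a1 UMIs, at 12.6 (11.8 to 13.4), 17.0 (16.2 to 17.9) and 9.69 CPM (8.90 to 10.52), against 0.714 (0.369 to 1.25), 0.4998 (0.201 to 1.03) and 0.101 CPM (0.0275 to 0.259) in cells without one. The other 6 genes had between 0 and 6 UMIs in each tumor library. There was 1 library for each condition, and no cause was tested.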

How the results depend on the processing

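Of 52 counts recomputed under other settings, 45 stayed within 1.5 times the reported count and 7 did not. The proximal tubule count at 15 min (0 of 7) became 1 (Slc5a2) without mitochondrial genes in the denominator, 2 (Slc5a2 and Slc5a12) with at least 200 genes as the only limit, 1 (Slc5a10) at no more than 25% mitochondrial UMIs and 5 at a threshold of 1.5-fold. The count at 60 min (1 of 7) became 2 (Slc5a2 and Slc5a12) without mitochondrial genes and 4 at 1.5-fold. The whole-library count at 60 min (0 of 7) became 1 (Slc5a10, lower) at 1.5-fold. Leaving out each library in turn kept the S1 and S3 count at 6 to 6 and the count with the highest level in a proximal tubule class at 6 to 6. The S1 and S3 count was 4 at no more than 25% mitochondrial UMIs and 5 with a wider gap between marker scores. Of 98 ratios of single genes to the control, 95 kept their direction. The causes were not tested. No paired analysis was possible because each condition had 1 library. The number of cells limits S3, where 0 UMIs in the 21 control cells allow up to 25.2 CPM.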
